A study of Homo sapiens with 2 samples.

Results

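Homeobox genes encode transcription factors that bind DNA through the homeodomain, and 94 of them are described here in BE(2)C, a cell line from a human neuroblastoma that carries extra copies of MYCN. They were chosen by name, not by their values: the current symbol begins with 1 of 21 family stems (HOX clusters A to D, LHX, LMX, MEIS, PBX, PHOX2, PAX, POU, DLX, MSX, EMX, IRX, NKX, ISL, TLX, PRRX, ZFHX and that of the genes SIX2 to SIX6) and a digit. Hyphenated symbols, pseudogenes and PAXIP1 and PBXIP1 were left out, which removed all 12 NKX genes. EMX2OS, a non-coding RNA, and POU2AF1 and POU2AF3, coactivators without a homeobox, were set aside too. The 94 genes, from 19 of the stems, stand among 14812 named genes of the table. Of the HOXA cluster, HOXA2 alone is described, and the other HOXA genes were not analysed here.

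Each group was 1 culture on 1 Affymetrix Human Gene 2.0 ST array, where a probe set is a group of short probes that together read 1 transcript. Both cultures were transfected by lipofection, and RNA was taken 36 hours later. One received siRNA against MYCN (MYCN2, Qiagen) and the other a control siRNA from a different supplier (Dharmacon), so supplier and target cannot be told apart. The title of the control array adds the word reanalysis. The level of MYCN was not analysed here, so the depth of its knockdown is not given.

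HOX proteins set position along the body axis. They are encoded in clusters in which gene order follows the order of expression from head to tail, and they bind DNA together with the TALE cofactors of the PBX and MEIS families. In the sympathetic lineage, from which neuroblastoma arises, PHOX2A and ISL1 act with HAND2 and GATA3 in a circuit that keeps the noradrenergic programme active. PRRX1 stands on the opposite side, as a regulator of the mesenchymal state that neuroblastoma cells can also take.

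All values are log2 RMA values, and a difference is MYCN siRNA minus control siRNA. Without replicates no test was possible. The yardstick used below is the spread between probe sets of the same gene, an SD of 0.32 per probe set over 374 genes. It leaves out everything that differs between 2 cultures. A gene counted as measured when it reached the median row of the array (4.60 with control siRNA, 4.55 with MYCN siRNA) in at least 1 of the 2, which 10592 genes did. Values near these medians are not shown to be above background, and levels of different genes are not ranked here because their probes differ. The 2 arrays correlated at r = 0.986 over 46255 rows. Of 12 listed sympathetic markers, 9 are in the table and all 9 were measured, among them DBH, DDC, CHGA, HAND2 and GATA3. As 71.5% of all genes were measured, passing the filter does not identify the cell line.

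None of the 94 members differed by 2-fold or more between the arrays. Of the 94, 77 were measured. Among all measured genes, 2.21% were at least 2-fold higher in the MYCN siRNA array and 1.16% at least 2-fold lower. The 2 members nearest to that threshold were MEIS2, a TALE cofactor of HOX proteins, at a difference of −0.99 (1.99-fold lower), and PAX6, an eye and brain patterning factor, at 0.97 (1.95-fold higher). At a threshold of 1.5-fold, 3 measured members were higher (PAX6, PBX2 and DLX5) against a background of 8.81%. At the same threshold 6 were lower (MEIS2, HOXC13, HOXD13, SIX4, HOXD9 and PAX7) against a background of 5.79%.

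Small differences leaned downward. Without any filter, 62 of the 94 members were lower in the MYCN siRNA array, 29 were higher and 3 had identical values, a share of 66.0% lower against 49.1% of all 14812 genes. Their median difference was −0.12, against 0.00 for all genes. Of the 77 measured members, 50 were lower, 24 higher and 3 identical (background 48.0% lower and 50.9% higher), with a median of −0.17 against 0.01 for all measured genes. The filter was passed in both arrays by 70 members, in the control array alone by 5 (HOXB3, HOXB13, PAX8, POU2F2 and PRRX1) and in the MYCN siRNA array alone by 2 (HOXB8 and PAX6). The 5 that passed in the control array alone had to be lower. The 2 others could be lower only by less than the gap between the 2 array medians, which all but fixed their direction. Over the 70, 45 were lower (background 48.0%).

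The lean moved with signal. Among the 31 members past the 70th percentile of all rows (5.90 and 5.93), 17 were lower and 13 higher (background 44.5%), and the median was −0.0086. Among the 46 measured members under that level, 33 were lower and 11 higher, with a median of −0.20. Of the 3199 measured genes of all kinds under that level, 56.0% were lower, with a median of −0.06. The part of dim signal in the lean was not tested.

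**Figure D1:**
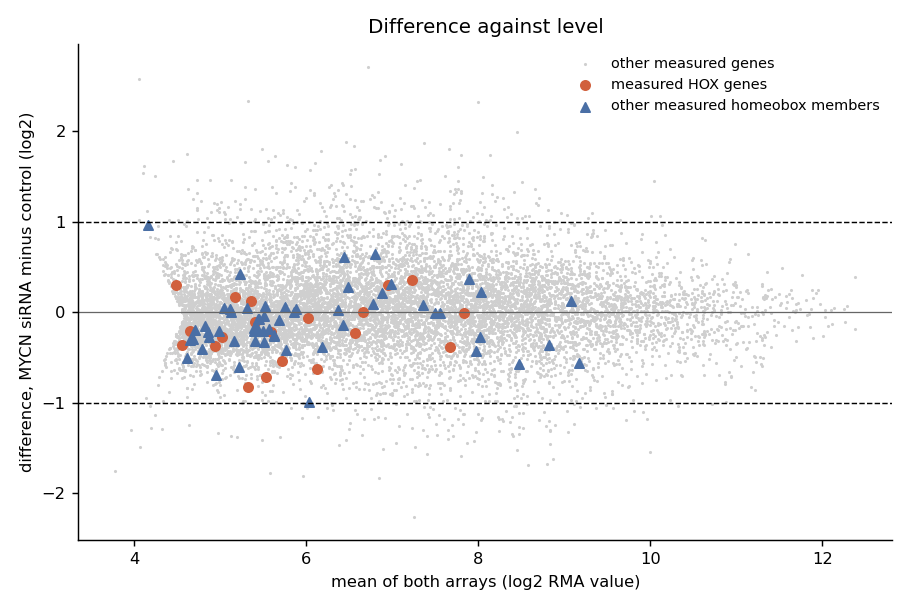
The difference (MYCN siRNA minus control, log2) of each measured gene is plotted against the mean of its 2 array values (log2), with measured HOX genes as circles, the other measured homeobox members as triangles and all other measured genes as small grey points. All 77 members lie between the dashed 2-fold lines, and most of those at low levels lie below 0.

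The HOX clusters differed in how many of their genes were measured. All 7 HOXC genes in the table passed the filter in both arrays, as did 8 of 9 HOXD genes. Of 10 HOXB genes, 5 were measured, and 2 of these, HOXB7 and HOXB9, passed in both arrays. HOXA2, a hindbrain gene, was under the filter at 3.43 and 3.51. Among the 20 measured HOX genes 14 were lower (background 48.0%), 5 higher and 1 identical, with a median of −0.21. HOXB3 and HOXB13 passed with control siRNA alone, which fixed their direction, and HOXB8 with MYCN siRNA alone, which all but fixed its direction. Of the 17 that passed in both, 12 were lower and 4 higher. The 57 measured members outside the clusters had a median of −0.15.

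The HOXC genes went both ways, with 3 higher and 4 lower. HOXC13, the most posterior gene, known for its role in hair and nail, was at 5.74 with control siRNA and 4.91 with MYCN siRNA (difference −0.83, 1.78-fold lower). HOXC12 next to it was at 5.46 and 5.35. HOXC10, which patterns lumbar motor neurons, was at 7.05 and 7.41 (0.36), and HOXC9, a thoracic gene known to promote neuronal differentiation of neuroblastoma cells, at 6.80 and 7.11 (0.31). These 2 neighbours were higher by about 1 SD of a probe set. HOXC8, another thoracic gene, was at 7.87 and 7.48 (−0.39). HOXC4 was at 7.84 and 7.83, and it shares transcripts with neighbouring HOXC genes, so its value is uncertain. HOXC11 was at 5.29 and 5.41. The cluster median was −0.01.

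HOXD genes were lower or level, with 1 exception. HOXD13, which patterns digits, was at 5.89 and 5.18 (−0.71, 1.64-fold lower), and HOXD9 at 6.44 and 5.81 (−0.63, 1.54-fold lower). HOXD4 was at 5.99 and 5.45 as the mean of 2 probe sets, which gave −0.50 and −0.58. These 3 genes do not adjoin each other. HOXD8 (6.68 and 6.46) and HOXD11 (5.70 and 5.49) were lower by less than the probe set SD, and HOXD10 was at 6.05 and 5.98 (−0.06). HOXD3 had the same value, 6.66, in both arrays. HOXD1, at the anterior end, was at 5.09 and 5.25 (0.16), the only HOXD gene that was higher. The median of the 8 was −0.22.

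HOXB genes were dim. HOXB7 was at 5.13 and 4.75 (−0.38), HOXB9 at 5.15 and 4.88 (−0.28), and HOXB13, a prostate gene, at 4.73 and 4.37 (−0.36). HOXB3 was at 4.76 and 4.55, and HOXB8 at 4.34 and 4.64 (0.30). The 5 HOXB genes under the filter (HOXB1, HOXB2, HOXB4, HOXB5 and HOXB6) lay between 2.63 and 4.59, with differences from −0.17 to −0.01. All HOXB values were thus close to the array medians or below them.

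**Figure D2:**
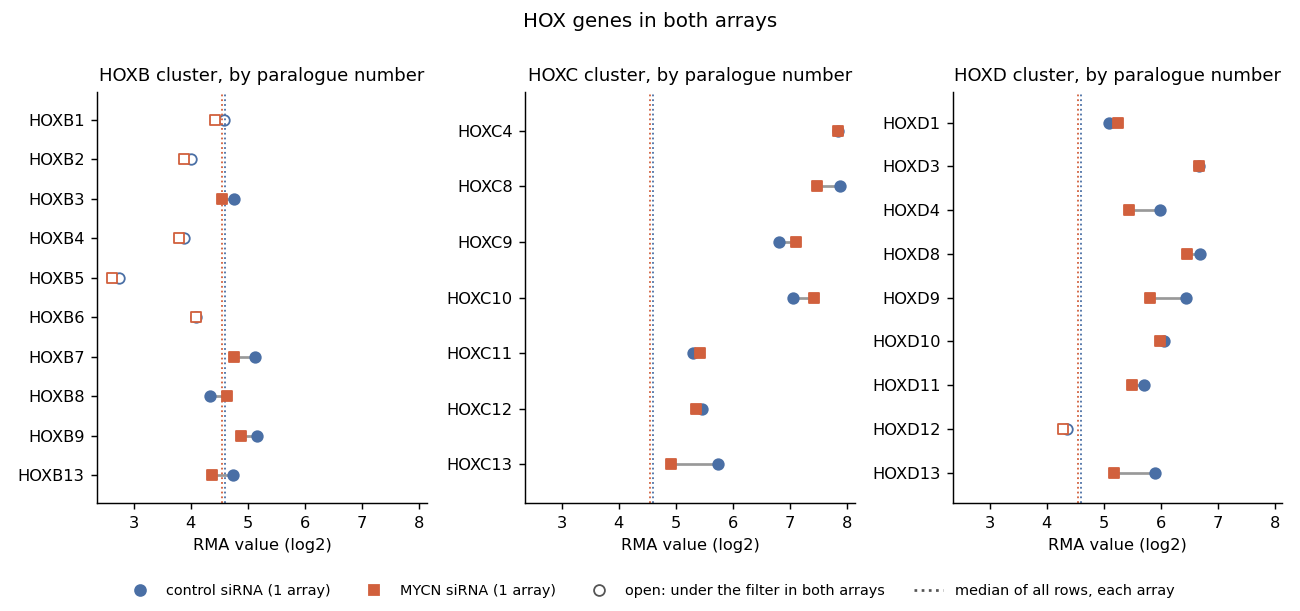
RMA values (log2) of the HOXB, HOXC and HOXD genes in the control array (circles) and the MYCN siRNA array (squares), 1 array each, ordered by paralogue number within each cluster, with open symbols for genes under the filter and dotted lines at the array medians. HOXC13, HOXD13, HOXD9 and HOXD4 show the long leftward shifts, and HOXC9 and HOXC10 shift to the right.

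Read across clusters by paralogue group (genes of the same number, which descend from 1 ancestral gene), group 13 was at −0.83 for HOXC13, −0.71 for HOXD13 and −0.36 for HOXB13. HOXB13 passed the filter with control siRNA alone, which fixed its direction. Group 9 was split, with HOXD9 at −0.63, HOXB9 at −0.28 and HOXC9 at 0.31. Group 8 was split too, with HOXC8 at −0.39, HOXD8 at −0.23 and HOXB8 at 0.30. The 11 measured genes of groups 9 to 13 had a median of −0.21, which was 0.12 over the 4 of them that passed the 70th percentile, HOXC9, HOXC10, HOXD9 and HOXD10. HOXC13, HOXD13 and HOXB13 were all under that percentile in both arrays.

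The promoters of HOXD genes are shown because they hold the letters that MYC family proteins bind as dimers with MAX. The motif CACGTG, an E-box that reads the same on both strands, was searched in RefSeq promoter windows (GRCh38.p14) from 250 bases before to 50 bases after each gene start, which were given for 62 members. It was found in 5 of 8 HOXD genes, in 7 of the 62 members (11.3%) and in 8.77% of all 27305 genes with a window. The other 2 members were IRX1 and DLX2. A match describes letters in a window and is not a binding site. Bases around each motif are printed 5′ to 3′ on the strand of the gene, with the motif in capitals.
HOXD13 (chr2:176092578-176092607, plus strand): cgttcctaccccCACGTGgccgcgcgcagc
HOXD11 (chr2:176107178-176107207, plus strand): tcttcatggcgtCACGTGacataattacca
HOXD10 (chr2:176116660-176116689, plus strand): caggctctggagCACGTGacccgagaggag
HOXD3 (chr2:176157248-176157277, plus strand): acaagtcccgacCACGTGattggcgaaata
HOXD1 (chr2:176188603-176188632, plus strand): gccggccagcgcCACGTGgccgcccccgcc
IRX1 (chr5:3595694-3595723, plus strand): ggcacggggcacCACGTGctcgcgggaggg
DLX2 (chr2:172102928-172102957, minus strand): gtcgccagcgctCACGTGacgagtgttaaa

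The flanking bases differ between the 7 promoters. The motif began 131 bases before the start in HOXD13, 90 in HOXD11, 106 in HOXD10, 47 in HOXD3, 53 in HOXD1, 126 in IRX1 and 45 in DLX2. The 250 bases before the start of HOXD13, which had the largest difference of the genes with the motif, and of HOXD11, which is 2 genes along the cluster, show the motif in context.
HOXD13 (chr2:176092471-176092720, plus strand): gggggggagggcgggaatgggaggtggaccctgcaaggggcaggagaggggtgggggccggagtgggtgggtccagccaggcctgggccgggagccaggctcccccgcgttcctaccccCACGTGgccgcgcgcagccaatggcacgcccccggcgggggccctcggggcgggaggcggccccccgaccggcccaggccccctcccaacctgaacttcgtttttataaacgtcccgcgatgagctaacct
HOXD11 (chr2:176107030-176107279, plus strand): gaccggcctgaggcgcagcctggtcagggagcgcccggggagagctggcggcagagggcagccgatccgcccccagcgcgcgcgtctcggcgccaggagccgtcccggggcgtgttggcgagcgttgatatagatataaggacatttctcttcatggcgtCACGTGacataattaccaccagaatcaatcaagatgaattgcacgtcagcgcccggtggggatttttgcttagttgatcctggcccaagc

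A link between the motif and the differences was not tested. The 5 HOXD genes with CACGTG ran from −0.71 (HOXD13) to 0.16 (HOXD1) with a median of −0.06. HOXD4 and HOXD8, the measured HOXD genes whose window lacks it, were at −0.54 and −0.23. No window was given for HOXD9 (−0.63). Over all members with a window, the 7 with the motif had a median of −0.18 and the 45 measured without it one of −0.17. The related motif CACGCG (or CGCGTG on the other strand) stood in 11 of the 62 members (17.7%, against 13.5% of all genes), MEIS2, PAX6 and POU4F1 among them. CATGTG (or CACATG) stood in 10 (16.1%, against 13.4%).

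The cofactors of HOX proteins held the lowest member of all. MEIS2, which is also known to be needed for neuroblastoma cell growth, was at 6.53 with control siRNA and 5.54 with MYCN siRNA, as the mean of 2 probe sets. The brighter probe set was at 8.41 and 7.47 (−0.93) and the dimmer at 4.65 and 3.61 (−1.05), alike within the probe set SD. The dimmer lay next to the control array median and under the MYCN siRNA array median, so its fold is uncertain. MEIS1, its paralogue, was level at 6.36 and 6.38. MEIS3 was at 5.02 and 5.44 (0.42), and a pseudogene of near-identical sequence, MEIS3P1, was higher too (4.96 and 5.86), so the MEIS3 value is uncertain.

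All 3 PBX genes, the main partners of HOX and MEIS proteins, were higher. PBX2 was at 6.48 and 7.12 (0.64, 1.56-fold) as the mean of 6 probe sets, several of them with identical values, whose differences lay between 0.64 and 0.65. PBX3 was at 7.93 and 8.15 (0.22) and PBX4 at 5.73 and 5.79 (0.06). MEIS2 and PBX2 thus differed in opposite directions, each by at least 2 probe set SDs. Of the other TALE cofactors on the list, PKNOX1 was at 7.28 and 6.95 (−0.33) and TGIF1, a repressor, at 5.36 and 5.03 (−0.34).

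The listed chromatin regulators that hold HOX clusters silent or active (polycomb, trithorax, CTCF and CDX genes) included none past 1.5-fold. Of 20 measured, 14 were lower (background 48.0%) and 6 higher, with a median of −0.13. PHC1, a polycomb subunit, was lowest at −0.40 and RING1, a polycomb ubiquitin ligase, highest at 0.44. SUZ12, a core subunit of the complex that methylates histone H3, was at 10.40 and 10.24, and CTCF, which insulates domains, at 10.24 and 10.01.

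The factors of the sympathetic lineage were nearly level. PHOX2A, which drives the noradrenergic enzymes, was at 9.01 and 9.14 (0.12). SIX3, listed among adrenergic factors of neuroblastoma, was at 7.32 and 7.40 (0.08), and PBX3 at 0.22. ISL1, a LIM factor of sympathetic and sensory neurons, was the lower one, at 8.19 and 7.76 (−0.43) over 2 probe sets: the brighter was at 9.37 and 9.12 (−0.25) and the other differed by −0.60. The group median was 0.10 over 4 genes, and no difference reached 1.5-fold.

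The partners of these factors were nearly level too. Of 16 measured genes on the list, 9 were higher (background 50.9%) and 7 lower (median 0.10), from INSM2 at −0.42 to SOX4 at 0.45. HAND1, a sympathetic bHLH factor, was at 11.83 and 11.80, and GATA2 at 10.73 and 10.96. Of 7 measured genes known as PHOX2 targets or partners, PHOX2A among them, 5 were higher (background 50.9%) and 2 lower, with a median of 0.08. TLX2 was lowest at −0.27. DBH, which makes noradrenaline, was highest at 9.32 and 10.77 (1.45, 2.73-fold higher). RET, a receptor kinase, was at 8.87 and 9.79. TH, which starts the same synthesis, was at 6.47 and 6.53. PHOX2A and these targets were measured in the same 2 arrays.

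POU4F1 and the TLX genes are known from sensory and enteric neurons and were chosen after their values were seen. POU4F1, also called BRN3A, a factor of sensory neurons, was at 9.45 and 8.89 (−0.57, 1.48-fold lower). TLX2, a PHOX2 target in enteric neurons, was at 8.15 and 7.88 (−0.27), TLX3, which specifies excitatory sensory neurons, at 5.68 and 5.35 (−0.33), and TLX1 at 5.53 and 5.48. Of these 4, POU4F1 alone differed by more than 1.5 probe set SDs.

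Of 5 mesenchymal factors, 3 were lower and 2 higher, and all but MSX1 and MSX2 were under the 70th percentile. PRRX1 was at 4.86 and 4.35 (−0.51), above the median of the control array and below that of the MYCN siRNA array. SIX4, a muscle development factor, was at 5.30 and 4.60 (−0.70, 1.62-fold lower), and MSX1, a craniofacial mesenchyme gene, at 5.97 and 5.56 (−0.42). PRRX2 was level at 5.86 and 5.90, and MSX2, the paralogue of MSX1, was at 6.34 and 6.62 (0.28). The median over the 5 was −0.42. PRRX1 passed the filter with control siRNA alone, so its direction was fixed by the filter, and without it the median was −0.19, with 2 of 4 lower. It was −0.070 over MSX1 and MSX2, which passed the 70th percentile.

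**Figure D3:**
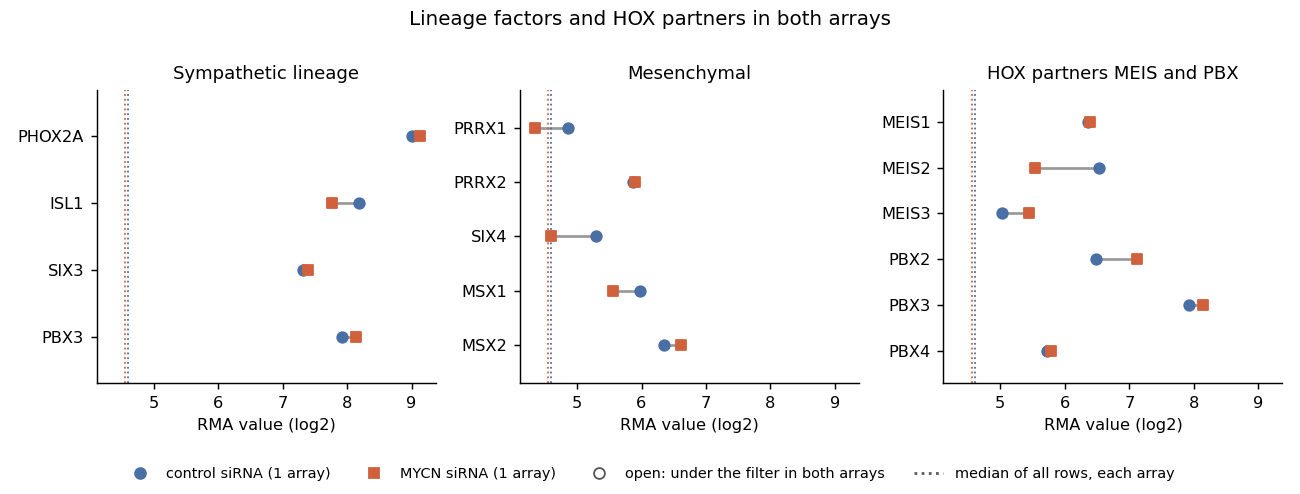
RMA values (log2) in the control array (circles) and the MYCN siRNA array (squares), 1 array each, of the sympathetic factors, the mesenchymal factors and the HOX partners, with dotted lines at the array medians. ISL1, SIX4, PRRX1, MSX1 and MEIS2 lie further left in the MYCN siRNA array, PBX2 lies further right, and PRRX1 and SIX4 end next to the medians.

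Other regulators of the mesenchymal state showed little difference. Of 12 measured on the list, 7 were lower (background 48.0%), 4 higher and 1 identical, with a median of −0.06. SNAI2, a repressor of epithelial genes, was at 11.17 and 10.82 (−0.35), the lowest of the list. MAML2, a NOTCH coactivator, was highest at 4.53 and 5.33. It passed the filter with MYCN siRNA alone, which all but fixed its direction. Over the 11 genes of the list that passed in both arrays the median was −0.09. TWIST1 was level at 7.82 in both arrays. Of the mesenchymal markers, 4 were measured, 2 higher and 2 lower (median −0.06). VIM was at 6.08 and 6.65 and FN1 at 4.79 and 5.02, both higher. PRRX1 (−0.51, its direction fixed by the filter) and SNAI2 (−0.35) were lower, while CD44 and YAP1 were under the filter. Of 6 fibroblast markers, 2 were in the table: LUM at 6.54 and 5.37, and DCN under the filter at 3.12 and 3.86. The summed log2 level of these 2 was 9.65 with control siRNA and 9.23 with MYCN siRNA. Of 6 Schwann and glial markers, 3 were in the table and measured: S100B at 5.90 and 6.92 (2.03-fold higher), SOX10, which defines the lineage, at 6.19 and 5.91, and ERBB3 at 5.24 in both (summed log2 levels 17.33 and 18.07). Of 7 haematopoietic markers, 4 were in the table and 2 measured (summed log2 levels of the 4 18.78 and 20.20). CD68, a lysosomal protein of macrophages, had a difference of 1.74 (3.33-fold higher) and CSF1R one of −0.38. CSF1R passed the filter with control siRNA alone, which fixed its direction. The part of these markers in the mesenchymal values was not tested.

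**Figure D4:**
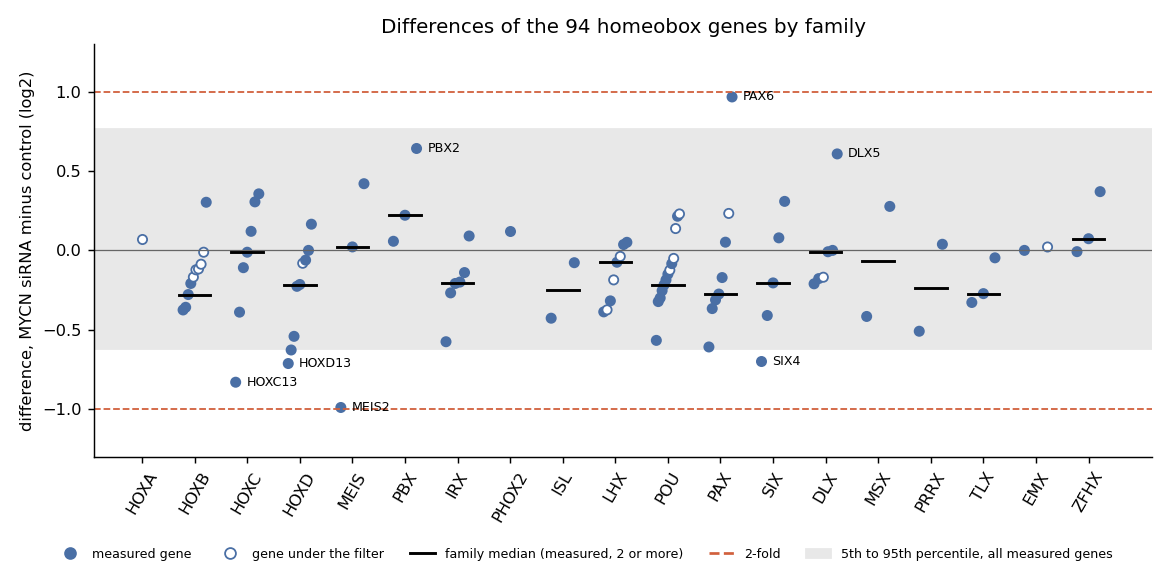
Difference (MYCN siRNA minus control, log2) of each of the 94 homeobox genes by family, with open circles for genes under the filter, bars for family medians over measured genes, dashed lines at 2-fold and a grey band from the 5th to the 95th percentile of all measured genes (−0.62 to 0.76). MEIS2, HOXC13, HOXD13, SIX4 and HOXD9 lie below the band, PAX6 above it, and no point crosses a dashed line.

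Of the PAX genes, which pair a paired domain with a full, partial or absent homeodomain, 5 of 7 measured were lower (background 48.0%, median −0.28). PAX8 passed the filter with control siRNA alone, which fixed its direction. PAX6 passed with MYCN siRNA alone, which all but fixed its direction. PAX6 was at 3.67 with control siRNA and 4.64 with MYCN siRNA. It lies under the control median and just over the other, so its fold is uncertain. PAX7, a neural crest and muscle stem cell factor, was at 5.52 and 4.91 (−0.61, 1.52-fold lower). PAX5, known as the B cell lineage factor, was at 9.01 and 8.64 (−0.37). PAX8, PAX9, PAX2 and PAX1 were between −0.31 and 0.05. PAX3, a neural crest factor, was under the filter at 3.59 and 3.82.

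POU genes were lower in 8 of 9 measured (background 48.0%, median −0.22), POU4F1 by the most. POU2F2 passed the filter with control siRNA alone, which fixed its direction, and the other 8 had a median of −0.20. POU4F3, of inner ear hair cells, was at 5.57 and 5.25 (−0.32), POU2F2, of B cells, at 4.83 and 4.53 (−0.30), and POU3F2, a neuronal factor also called BRN2, at 5.75 and 5.50 (−0.25). POU2F3 (−0.22), POU3F3 (−0.15) and POU3F1 (−0.08) differed by less than the probe set SD. POU6F1 was the higher one, at 6.77 and 6.98 (0.22). POU5F1, the pluripotency factor OCT4, was at 5.66 and 5.47, and its many near-identical pseudogenes make the value uncertain.

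The Iroquois genes, TALE factors encoded in 2 clusters, were lower in 5 of 6 (background 48.0%). IRX6 was at 8.76 and 8.18 (−0.58, 1.49-fold lower), while its cluster neighbours on chromosome 16, IRX5 (6.50 and 6.36) and IRX3 (6.72 and 6.82), differed by −0.14 and 0.09. IRX1, IRX2 and IRX4 on chromosome 5 lay close together, at −0.27, −0.20 and −0.21.

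Adjacent pairs in other families did not always move alike. DLX5, a forebrain and bone factor, was at 6.13 and 6.74 (0.61, 1.52-fold higher), while its neighbour DLX6 was at 7.50 and 7.49. DLX1 had the value 5.12 in both arrays, and its neighbour DLX2 was at 5.52 and 5.34. DLX4 was at 5.61 and 5.40. SIX2, a kidney progenitor factor, was at 6.83 and 7.14 (0.31), beside SIX3. SIX4 and SIX6, close together on chromosome 14, were both lower (−0.70 and −0.41), with SIX6, an eye factor, at 4.99 and 4.58. SIX5 was at 5.49 and 5.28, with its 2 probe sets at −0.07 and −0.34. Of the EYA and DACH cofactors that these proteins bind, EYA4 and EYA3 were at −0.45 and −0.31 and EYA1 and DACH1 at 0.22 and 0.14.

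LIM factors of the LHX family were level or lower. LHX3, a motor neuron and pituitary factor, was at 6.37 and 5.98 (−0.39), and LHX2 was at −0.32, with its 2 probe sets at −0.13 and −0.50. LHX1, LHX6 and LHX9 were between −0.07 and 0.05, and LHX4, LHX5 and LHX8 were under the filter. ISL2 was level at 5.49 and 5.42. Of the partners of LIM factors, LDB1, which bridges them, was at 10.58 and 10.35, and LMO4, a LIM-only protein, was lowest at 6.13 and 5.43 (−0.70), followed by LDB2 at −0.67. SSBP2, which stabilises LDB proteins, was highest at 0.41.

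The zinc finger homeobox genes were level or higher. ZFHX3, a tumour suppressor and neuronal factor also called ATBF1, was at 7.71 and 8.08 (0.37, 1.29-fold higher). ZFHX4 was at 7.56 and 7.55, and ZFHX2 at 5.49 and 5.56. EMX1, a cortex factor, had the value 5.86 in both arrays. DLX1, EMX1 and HOXD3 are among 1859 rows (4.02% of the table) whose 2 values are identical.

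Of 77 other homeobox genes in the table from a separate list, 58 were measured. Of these, 41 were lower (background 48.0%), 16 higher and 1 identical, with a median of −0.15 and none at 2-fold. Over the 55 that passed the filter in both arrays, 40 were lower and 14 higher (background 48.0% lower). The listed genes were not compared with the members by test or at matched levels. ADNP, a neuroprotective homeobox protein, was lowest at 9.71 and 8.88 (−0.83), and ZHX2, a repressor, highest with a difference of 0.90. PROX1, which controls cell cycle exit of progenitors, was at 8.67 and 8.56. Of the 12 hyphenated NKX genes, 11 were measured and 9 of them were lower (background 48.0%, median −0.20). Differences ran from NKX2-4 at −0.69 to NKX1-2 at 0.04. NKX2-1, NKX2-3 and NKX6-3 passed the filter with control siRNA alone, which fixed their direction. The other 8 had a median of −0.18.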

How the data were processed

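Total RNA (100 ng, WT PLUS labelling, per the labels' protocols) of 2 cultures was hybridised to 1 array each. The authors deposited log2 values per probe set made with RMA, per the submitters' processing notes. The software and settings of RMA, and which arrays entered it, are otherwise unstated in the labels. RMA commonly equalises array distributions, so a change in total RNA per cell would not be seen.

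Of 46255 rows, 15835 had 1 gene symbol in the platform annotation, and all of these matched RefSeq (GRCh38.p14) by gene identifier. Probe sets of the same gene were averaged on the log2 scale. The 94 members had 105 rows, and 7 members had several. Calculations used Python 3.11.15, pandas 2.3.3 and statsmodels 0.14.6 and were tested on simulated data. The members, gene lists and thresholds were chosen with earlier results of these data known. Any measured member could be named. Members under the filter were named where needed to describe a cluster, group or paralogue pair. Of each list, the highest and lowest difference and up to 2 more of high level were named. RET, TH, TWIST1, LDB2, CD44, YAP1, SOX10, ERBB3 and DCN were chosen after their values were seen. Alternatives were other normalizations (quantile, median centring, and loess, span 0.3), the brightest probe set, no filter or one at the 70th percentile, an offset of 16 on linear values, and a 1.5-fold threshold. Protein sequences were not used here.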

Additional observations from a re-analysis of the deposited data

How the results depend on the processing

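No paired analysis was possible because each group has 1 array. No member was 2-fold lower under any alternative. At a threshold of 1.5-fold, 6 were lower and 3 higher. The count of members 2-fold higher was 1 (PAX6) after median centring, quantile normalization and loess, and 0 as deposited. PAX6 was at 0.51 with an offset of 16. The median of all members was −0.12 after median centring, after loess, with no filter and with an offset of 16, and −0.0086 over the 31 members past the 70th percentile, of which 17 were lower. With that filter the HOXC median was 0.15, the mesenchymal median −0.070, the median of HOX groups 9 to 13 turned to 0.12 and that of SIX2 to SIX6 to 0.19. Fewer genes enter under that filter. Over members past the filter in both arrays, an alternative added after seeing the data, the mesenchymal median was −0.19. Counts of lower members over all alternatives were added after seeing the data: 46 of 77 after median centring (42.9% of all measured genes), which moved the median of all measured genes by 0.05, and 53 after quantile normalization (48.5%). Of 563 values of single members under alternatives, 562 moved by less than the probe set SD. Many of these could not move. A change of filter leaves the difference of a single gene as it is. The brightest probe set leaves members with 1 probe set as they are. With 1 array per group, the number of arrays limits the precision.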

Other observations

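The non-coding RNAs of the HOX clusters, which were looked up after the values of the HOX genes were seen, were lower in 7 of 9 measured (48.0% of all measured genes). HOXA-AS3, HOXB-AS3 and MIR196A2 passed the filter with control siRNA alone, which fixed their direction, and of the other 6, 4 were lower (median −0.20). HOXC13-AS, the antisense RNA of HOXC13, was at 6.10 with control siRNA and 5.65 with MYCN siRNA (−0.46), in the same direction as HOXC13. HOXA10-AS was at 6.02 and 5.49 (−0.53) and HOXA-AS3 at 4.69 and 4.53, while HOXA11-AS and HOTTIP, from the posterior end of the HOXA cluster, were under the filter. HOTAIR, transcribed between HOXC11 and HOXC12, was higher, at 5.45 and 5.87 (0.42), and HOXD-AS2 was at 4.97 and 5.28 (0.31). The hairpin probe sets of MIR196A2 (4.73 and 4.42) and MIR615 (5.16 and 4.94), which lie in the HOXC cluster, were near the array medians. Hairpin probe sets do not measure the mature microRNA.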
